A study of Mus musculus with 4 samples.

Results

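Mouse morula wells were split by how much of their RNA came from 8 genes of mitosis, and the wells at the upper end (high wells) were compared with those at the lower end (low wells). The score of a well was the mean of log1p values, each gene's count scaled to 10000 counts per well, over Ccnb1, Cdc20, Plk1, Aurka, Cenpe, Cenpf, Bub1 and Tpx2. Within each plate and morpholino, wells were ranked by this score, and the highest 1 in 3 was set against the lowest 1 in 3, with the middle wells between them. Of 192 morula wells, 191 had at least 2000 detected genes and 1 was left out. This gave 63 high, 65 middle and 63 low wells, so that 126 of the 384 wells in the whole series entered the comparison. The wells were thus chosen by the measured counts of the score genes, which are described below without a test.

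The study injected mouse embryos with a morpholino, an antisense oligomer that blocks translation or splicing of a chosen RNA, and sequenced polyA RNA from wells of 96-well plates. Embryos received either the NKX1-2 morpholino, named for a homeobox gene, or a control morpholino, so that all wells came from injected embryos. Each plate held both morpholinos, in alternate wells. There were 2 morula plates, replicates 1 and 2, and 2 blastocyst plates. The labels do not state the strain, the hours of culture, the morpholino sequences or which wells came from 1 embryo. The labels call the samples single-cell data, but whether a well held 1 cell or more is not given, so that differences between cells and differences in the mix of cells in a well cannot be told apart.

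Cells entering mitosis accumulate a set of transcripts that peak in G2 and M phase and whose proteins are destroyed as the cell exits division. Cyclin B1 (Ccnb1) activates the kinase Cdk1, Plk1 and Aurka drive centrosome and spindle maturation, and Tpx2 activates Aurka on the spindle. Cenpe and Cenpf bind kinetochores, Bub1 acts in the spindle checkpoint, and Cdc20 switches on the anaphase-promoting complex, the ubiquitin ligase that ends mitosis. In the morula, the cleaving embryo divides without growth, and many of these RNAs are also supplied from the oocyte's store in earlier stages.

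Promoters of such genes often carry CCAAT boxes, bound by NF-Y, and the cell cycle homology region TTTGAA. The promoters of 7 of the 8 score genes were matched by symbol in RefSeq (GRCm38.p6, windows of 300 bases, of which 250 lie before the start). CCAAT, on either strand, was present in 7 of these 7, against 37.4% of all 32851 promoters of the table. TTTGAA, on either strand, was present in 4 of 7, against 17.9% of all promoters. Of 188 promoters of mitotic genes outside the score, 59.6% held CCAAT and 38.3% held TTTGAA. A match of letters is a description, not a site. The promoters of 2 score genes and of Cdk1, a mitotic gene outside the score, are shown 5′ to 3′ because they carry both sequences; capitals mark CCAAT, or its reverse complement, as well as TTTGAA. They lie at chr4:118437294-118437593 (minus strand) for Cdc20, at chr1:189688037-189688336 (minus strand) for Cenpf and at chr10:69352863-69353162 (minus strand) for Cdk1.
Cdc20: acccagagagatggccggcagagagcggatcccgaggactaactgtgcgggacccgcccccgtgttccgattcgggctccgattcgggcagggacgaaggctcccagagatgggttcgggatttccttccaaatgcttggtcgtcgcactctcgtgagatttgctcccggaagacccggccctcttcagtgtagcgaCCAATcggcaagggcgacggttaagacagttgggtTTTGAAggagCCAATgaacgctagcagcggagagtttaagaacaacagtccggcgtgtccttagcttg
Cenpf: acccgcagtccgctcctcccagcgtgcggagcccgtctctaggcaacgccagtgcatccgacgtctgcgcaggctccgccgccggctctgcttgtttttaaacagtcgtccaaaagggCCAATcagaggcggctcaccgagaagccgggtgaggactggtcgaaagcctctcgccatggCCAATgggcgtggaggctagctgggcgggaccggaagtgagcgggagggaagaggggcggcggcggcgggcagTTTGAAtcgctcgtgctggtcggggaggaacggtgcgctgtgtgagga
Cdk1: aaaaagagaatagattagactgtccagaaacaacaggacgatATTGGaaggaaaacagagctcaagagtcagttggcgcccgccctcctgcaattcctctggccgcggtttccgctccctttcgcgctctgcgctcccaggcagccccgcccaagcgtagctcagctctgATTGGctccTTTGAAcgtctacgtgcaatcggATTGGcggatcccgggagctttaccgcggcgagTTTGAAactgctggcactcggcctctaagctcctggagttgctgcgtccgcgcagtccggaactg

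Counts of the high and of the low wells were summed within each plate and morpholino, which gave 4 sums of high wells and 4 of low wells, with 16 wells each except for 15 in NKX1-2 replicate 2. A morula well held 7191 to 119729 counts (median 45568) and 2648 to 9944 detected genes (median 6899). The 8 sums held 587100 to 881140 counts, and the mean correlation of each with the other sums was 0.944 to 0.951, so none stood apart. The same 96 well barcodes recur on every plate, as positions on a plate do. In the alphabetical gene order, a run of 344 genes between U2af1 and V1rg10 has no count in any morula well, so that Ube2c and Ube2s, for example, were not measured there. Values below are CPM, the counts of a sum scaled to a common library total with TMM factors, and an SD is over the 4 sums of a group, which come from 2 plates. The fit removes differences in level between plates and morpholinos. The p-values thus rest on how the high-to-low difference varies over the 4 pairs of sums, and not on these SDs. The fit pools this variation in part over all genes tested. A small p of 1 gene therefore does not rest on its own 4 pairs alone. That variation may be partly technical.

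The score ran from 0.790 to 1.73 over the 191 wells, with a median of 1.18, and neighbouring wells on either side of a boundary scored nearly alike. In the NKX1-2 wells of plate 1, the lowest high well scored 1.24 and the highest middle well 1.24 as well (1.2424 against 1.2381). The highest low well of that group scored 1.13 and the lowest middle well 1.15. In the NKX1-2 wells of plate 2 the corresponding scores were 1.26 and 1.26 at the upper boundary and 1.15 and 1.16 at the lower. In control wells they were 1.25 and 1.25, and 1.12 and 1.12, on plate 1, and 1.17 and 1.15, and 1.06 and 1.07, on plate 2. Of the 191 wells, 111 were within 0.05 score units of a boundary. A split by rank places neighbouring wells on both sides of a boundary whatever kinds of well there are. The high and low wells are therefore described as ends of a range, and whether they are 2 kinds of well was not tested.

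**Figure D1:**
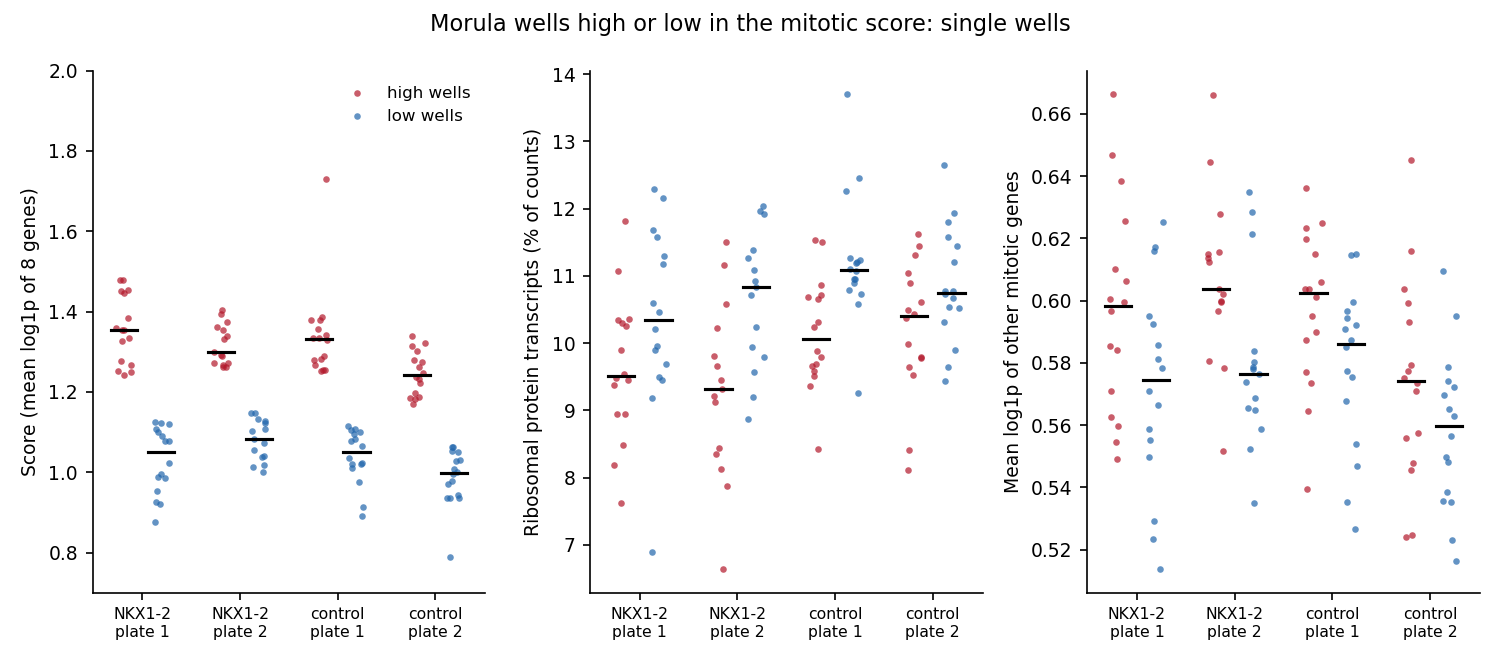
Each point is a morula well, high wells in red to the left of low wells in blue, for each morpholino and plate; black bars are medians. The left panel shows the score that chose the wells, the middle panel the percent of a well's counts in ribosomal protein genes, and the right panel the mean log1p level of the tested mitotic genes outside the score; the ribosomal share is lower in the median high well than in the median low well in all 4 pairs, and the points of the groups overlap in the middle and right panels.

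Between high and low wells, the median log1p value was 2.21 against 1.75 for Cdc20, 1.09 against 0.693 for Plk1 and 2.8947 against 2.6027 for Ccnb1. Ccnb1 averaged 1744 CPM in the high sums and 1299 CPM in the low sums, without TMM scaling, a ratio of 1.34. Cdc20 averaged 850 CPM in high sums and 499 CPM in low sums, and Plk1 208 CPM in high sums and 113 CPM in low sums. The ratio of high to low was 1.70 for Cdc20 and 1.83 for Plk1. Bub1, with 18.8 CPM in high sums and 12.6 CPM in low sums, had a count in only 33 of 63 high wells and 26 of 63 low wells. These differences follow from the choice of wells. Well to well, the variance of Ccnb1 was 5.97 times that of counting alone and that of Cdc20 3.52 times, against medians of 4.12 and 2.43 times for genes of like count. For Cenpf, Bub1 and Tpx2 it was 1.14, 1.15 and 1.09 times, against medians of 1.26, 1.15 and 1.38 times, so that their wells spread no more than genes of their count generally did. Over the wells of a plate and morpholino (47 or 48 wells), the median of the 28 pairwise correlations between score genes was 0.05 to 0.14. These correlations share each well's depth and are given as a description.

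Few mitotic genes outside the score passed the test. Of 196 genes in 6 lists of mitotic functions, 155 could be tested, and 2 passed: 1 higher and 1 lower in high wells. Over all genes tested, 118 of 6594 passed (1.79%), 30 higher (0.455%) and 88 lower (1.33%), by edgeR's quasi-likelihood test with Benjamini-Hochberg adjustment at 0.05. The median log2 fold change of the tested mitotic genes was 0.03, beside -0.01 for all genes tested, with 88 above 0 and 67 below. The groups are therefore called high and low wells by the score alone, and not mitotic and non-mitotic wells. Within each plate and morpholino, the rank correlation of the score with the mean level of these mitotic genes was 0.26 to 0.47 (47 or 48 wells). Both are taken per count of the same well, and the part of this in the correlation was not tested. The mean level of these genes had rank correlations of -0.30 to -0.76 with the percent of counts in ribosomal protein genes.

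Mad2l1bp encodes p31comet, which removes Mad2 and so silences the spindle checkpoint. It had 410 and 320 CPM in NKX1-2 high sums and 545 and 332 CPM in control high sums (plates 1 and 2), against 227 and 290 CPM in NKX1-2 low sums and 259 and 285 CPM in control low sums. All 4 high sums lay above all 4 low sums. The log2 fold change was 0.58 (SE 0.13, edgeR adjusted p = 0.0310). Psrc1, a microtubule-binding protein that tunes spindle dynamics, went the other way. It had 26.5 and 31.5 CPM in NKX1-2 high sums and 27.0 and 28.2 CPM in control high sums, against 57.9 and 46.9 CPM in NKX1-2 low sums and 68.7 and 52.4 CPM in control low sums. High and low sums did not overlap for Psrc1 either, and the log2 fold change was -0.98 (SE 0.22, edgeR adjusted p = 0.00787).

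By role, none of the 21 tested cyclin, Cdk and entry regulators passed, and their median was 0.08. Cdk1, the kinase that cyclin B activates, averaged 510 ± 49.0 CPM in high sums and 419 ± 72.2 CPM in low sums (SD, n = 4 sums each), was higher in 4 of 4 pairs, and did not pass (log2 fold change 0.29, SE 0.09, edgeR adjusted p = 0.0728). Cyclin A2 (Ccna2) had a log2 fold change of 0.20 (SE 0.08, edgeR adjusted p = 0.245). Cyclin B2 (Ccnb2), the sister of the score gene Ccnb1, had -0.17 (SE 0.13, edgeR adjusted p = 0.629). Among 22 genes of the anaphase-promoting complex and checkpoint, Mad2l1bp alone passed, and the median was 0.03.

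Of 29 kinetochore and centromere genes none passed; 20 lay above 0, with a median of 0.11. Of 16 chromosomal passenger and cytokinesis genes none passed and 13 lay above 0. Birc5 (survivin), of the passenger complex, had 0.03 (SE 0.10, edgeR adjusted p = 0.947). Of 37 spindle and microtubule genes Psrc1 alone passed, with a median of -0.05. Kif22, a chromosome-arm motor chosen after its value was seen, had 0.38 (SE 0.11, edgeR adjusted p = 0.0697), Nusap1 0.26 and Kif11 -0.20, the last 2 with adjusted p of 0.722 and 0.794. Of 30 condensin, cohesin and compaction genes none passed. Top2a and Mki67, common markers of cycling cells, had log2 fold changes of -0.27 (SE 0.20) and -0.37 (SE 0.28), with edgeR adjusted p of 0.613 and 0.618.

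**Figure D2:**
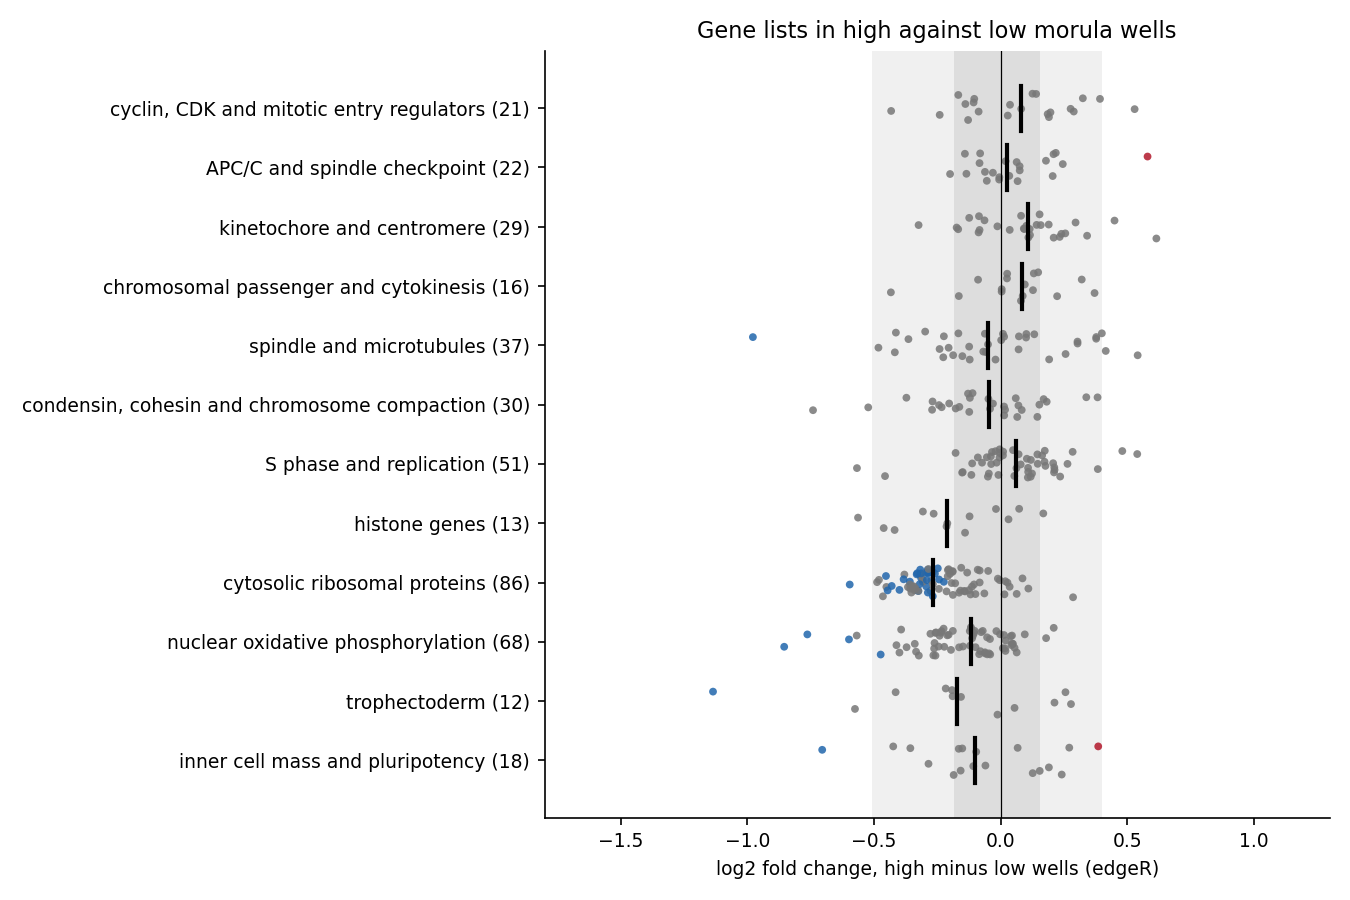
Each point is a tested gene, placed by its log2 fold change of high minus low morula wells, in 12 gene lists (number tested in brackets); red and blue points passed the test, black ticks are list medians, and the grey bands hold the middle 50% and 90% of all genes tested. The mitotic lists centre near 0 with 1 red and 1 blue point, and the ribosomal protein list lies to the left.

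The wider result was small in size. The 118 genes that passed had a median size of 0.43 on the log2 scale, and 2 rose and 10 fell by more than 1. Of the 118, 111 lay in the same direction in all 4 pairs of sums, as did 20.4% of all genes tested. The 4 high and 4 low sums did not overlap for 61 of them; over all genes tested, 122 (1.85%) were higher and 173 (2.62%) lower without overlap. The middle wells, which the test did not use, lay between the high and low wells for 112 of the 118 (94.9%), against 42.4% of all genes tested. The 118 were picked for a wide gap between high and low sums, in which a middle value falls more easily. The 2 percentages are therefore not alike and are given as a description only. The number of calls depended on the analysis: DESeq2 called 31, wells thinned to 20000 counts gave 26, and plate 2 alone gave 44. Without the block of plate and morpholino, edgeR called 0 genes, with 466 at an unadjusted p under 0.05, DESeq2 in the blocked design having called 31 and voom 104.

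Among the genes that rose, Inka1, an inhibitor of the kinase Pak4, had the widest change. It had 33.2 and 38.8 CPM in NKX1-2 high sums and 60.7 and 32.6 CPM in control high sums, against 8.90 and 29.3 CPM in NKX1-2 low sums and 11.9 and 10.8 CPM in control low sums. The groups did not overlap, and the NKX1-2 low sum of plate 2 was well above the other low sums. The log2 fold change was 1.44 (SE 0.29, edgeR adjusted p = 0.00352). A count was found in 42 of 63 high wells and 25 of 63 low wells. Phf20, a reader subunit of a histone acetyltransferase complex, averaged 33.7 ± 6.29 CPM in high sums and 15.3 ± 4.17 CPM in low sums (SD, n = 4 sums each), a log2 fold change of 1.13 (SE 0.29, edgeR adjusted p = 0.0210).

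Clp1 and Dbr1, which act in RNA processing, both rose. Clp1, an RNA kinase of the pre-mRNA cleavage and tRNA splicing machinery, had 238 and 288 CPM in NKX1-2 high sums and 256 and 203 CPM in control high sums, against 171 and 173 CPM in NKX1-2 low sums and 137 and 126 CPM in control low sums. Its sums did not overlap, and the log2 fold change was 0.70 (SE 0.12, edgeR adjusted p = 0.000335). Dbr1, which opens intron lariats, averaged 67.7 ± 13.6 CPM in high sums and 39.7 ± 17.3 CPM in low sums (SD, n = 4 sums each). Its log2 fold change was 0.79 (SE 0.21, edgeR adjusted p = 0.0380), although 1 low sum, NKX1-2 on plate 2 with 64.4 CPM, lay among the high ones.

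Zscan5b, a SCAN-domain zinc finger protein, averaged 147 ± 12.97 CPM in high sums and 89.0 ± 7.45 CPM in low sums (log2 fold change 0.72, SE 0.14, edgeR adjusted p = 0.00184). Klf17, a Kruppel-like factor of the preimplantation embryo, averaged 69.9 ± 13.9 CPM in high sums and 43.4 ± 4.34 CPM in low sums (0.68, SE 0.19, edgeR adjusted p = 0.0464). Klf2, another factor of the family, rose by 0.39 (SE 0.09, edgeR adjusted p = 0.0258), while in the NKX1-2 wells of plate 1 it was slightly lower in the high sum (725 CPM) than in the low sum (773 CPM). Obox8, of the oocyte-specific homeobox family, had 115 and 228 CPM in NKX1-2 high sums and 48.9 and 25.2 CPM in control high sums, against 77.1 and 111 CPM in NKX1-2 low sums and 34.3 and 20.05 CPM in control low sums. Within each pair the high sum was above the low, but the pairs differed far more among themselves than within (log2 fold change 0.73, SE 0.17, edgeR adjusted p = 0.0118). The list of early-embryo genes, drawn up for the Obox, Tdpoz and Zscan4 families, did not include Obox8. Its 2 tested members were Obox6 and Sp110, and neither passed. Obox6 had 0.20 (SE 0.07, edgeR adjusted p = 0.148) and Sp110 -0.13 (SE 0.11, edgeR adjusted p = 0.685).

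The others of the 12 with the widest rise had log2 fold changes between 0.63 and 0.89. They were C2cd2l, a lipid transfer protein at contacts of endoplasmic reticulum and plasma membrane (0.89, SE 0.19), the NF-kB inhibitor Nkiras1 (0.68, SE 0.16), the ubiquitin ligase Siah1a (0.67, SE 0.17), Tmem229b (0.65, SE 0.17) and Atg3, which couples LC3 to lipid in autophagy (0.63, SE 0.12). Each was higher in 4 of 4 pairs. Siah1a shares 39.5% of its 31-base stretches with other transcripts, so that its reads may be split with copies. Chosen after their values were seen, 3 genes of ribosome assembly rose: the rRNA methyltransferase Nop2 (0.52, SE 0.13), Imp3 of the U3 particle (0.45, SE 0.09) and Ebna1bp2 (0.35, SE 0.09), with edgeR adjusted p of 0.0226, 0.00456 and 0.0186. Over all genes tested 0.455% passed and rose. Other genes of ribosome assembly are not given here, so these 3 do not describe that group.

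**Figure D3:**
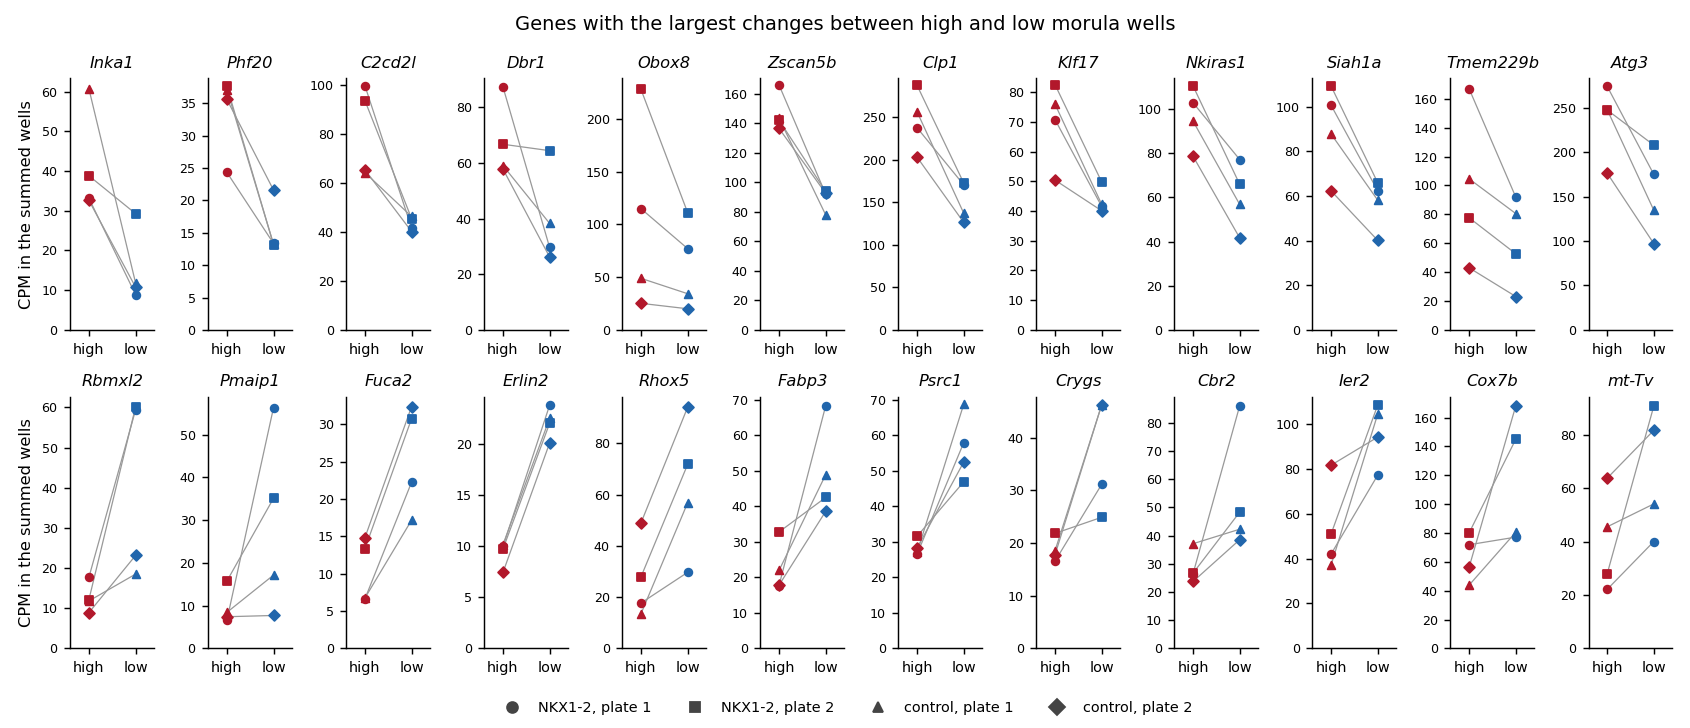
CPM of the 12 genes with the widest rise (top row) and the widest fall (bottom row) among named genes that passed and moved the same way in all 4 pairs; red points are sums of high wells, blue points sums of low wells, and grey lines join the 2 sums of a plate and morpholino. Every line slopes down in the top row and up in the bottom row; in Dbr1 and Pmaip1 1 line is nearly flat.

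The largest group that fell encodes the proteins of the cytosolic ribosome, whose transcripts are short, abundant and translated under growth control. Of 91 genes in the list 86 were tested, and 26 fell and 0 rose; by an unadjusted p under 0.05, 54 were lower and 0 higher. The median log2 fold change was -0.27, beside -0.01 for all genes tested, with 78 below 0 and 8 above. The median was -0.23 and -0.36 in NKX1-2 wells and -0.22 and -0.14 in control wells of plates 1 and 2. As a share of all counts, the list took 9.78% and 9.39% in NKX1-2 high sums and 10.3% and 10.3% in control high sums, against 10.7% and 10.8% in NKX1-2 low sums and 11.3% and 10.8% in control low sums. The share was lower in every high sum than in every low sum. Over wells of a plate and morpholino, the rank correlation of score and share was -0.29 to -0.54; both are taken per count of the same well, and the part of this in the result was not tested.

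Rpl29, of the large subunit, fell the furthest. It had 464 and 392 CPM in NKX1-2 high sums and 420 and 485 CPM in control high sums, against 682 and 578 CPM in NKX1-2 low sums and 738 and 666 CPM in control low sums. The groups did not overlap, the log2 fold change was -0.60 (SE 0.08, edgeR adjusted p = 3.6e-05), and the call held in 16 of 17 alternative analyses. From low to middle to high wells Rpl29 had 666, 517 and 440 CPM. Rps25, of the small subunit, had 1243 and 1160.0 CPM in NKX1-2 high sums and 1206 and 1207 CPM in control high sums, against 1498 and 1655 CPM in NKX1-2 low sums and 1482 and 1428 CPM in control low sums. Its 4 high sums lay close together and below the low ones (log2 fold change -0.33, SE 0.07, edgeR adjusted p = 0.00456).

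Rps16 averaged 338 ± 21.7 CPM in high sums and 459 ± 19.98 CPM in low sums (log2 fold change -0.45, SE 0.09, edgeR adjusted p = 0.00389). Rplp1, picked after its value was seen as the most abundant member that passed, and part of the stalk that recruits elongation factors, averaged 5558 ± 401 CPM in high sums and 6491 ± 458 CPM in low sums (-0.22, SE 0.06, edgeR adjusted p = 0.0260). Rpl37 (-0.36), Rpl39 (-0.33) and Rps29 (-0.45) fell as well, with SEs of 0.07, 0.07 and 0.10 and edgeR adjusted p of 0.00264, 0.00391 and 0.00456. At the other end, Rpl3 had 0.29 and did not pass. Of the 26 that fell, 24 were lower in 4 of 4 pairs.

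The exact members that pass are uncertain, because ribosomal protein genes have many processed copies. Rpl29, Rps25 and Rps16 share 44.9%, 38.8% and 39.1% of their 31-base stretches with other annotated transcripts. Beside the 26 list members, 26 of the genes that fell were ribosomal pseudogenes or gene models without a name. The number of members called was also sensitive: it was 14 with DESeq2, 9 with thinned wells, 4 with the share of counts as score, 2 when wells were split at the median, 2 without plate 1 and 7 without plate 2. In NKX1-2 wells alone 16 fell and 1 rose, and in control wells alone 1 fell and 1 rose. The list's median stayed between -0.31 and -0.16 over the 17 alternatives.

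The promoter of Rps25, which is described above, is shown 5′ to 3′ (RefSeq, GRCm38.p6, chr9:44407464-44407763, plus strand), since ribosomal protein promoters often carry ETS-type sequences. Capitals mark CCGGAAG. On either strand, CCGGAAG was present in 35.1% of 77 promoters of 65 matched ribosomal protein genes, against 8.86% of all promoters, and in 37.5% of the 24 promoters of list members that fell. The same letters were in 3 of the 7 promoters of score genes (42.9%) and in 22.9% of promoters of the other mitotic genes. CCAAT was in 12 of the 24 promoters of list members that fell, against 28.6% of the 77 and 37.4% of all promoters. These 24 promoters belong to 19 genes, of which 9 held CCAAT in a promoter.
Rps25: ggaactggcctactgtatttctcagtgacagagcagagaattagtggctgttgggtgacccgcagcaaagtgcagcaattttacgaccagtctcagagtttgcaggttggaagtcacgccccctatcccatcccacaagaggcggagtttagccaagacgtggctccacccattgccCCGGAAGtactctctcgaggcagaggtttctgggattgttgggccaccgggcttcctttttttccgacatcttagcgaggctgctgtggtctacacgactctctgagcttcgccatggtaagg

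**Figure D4:**
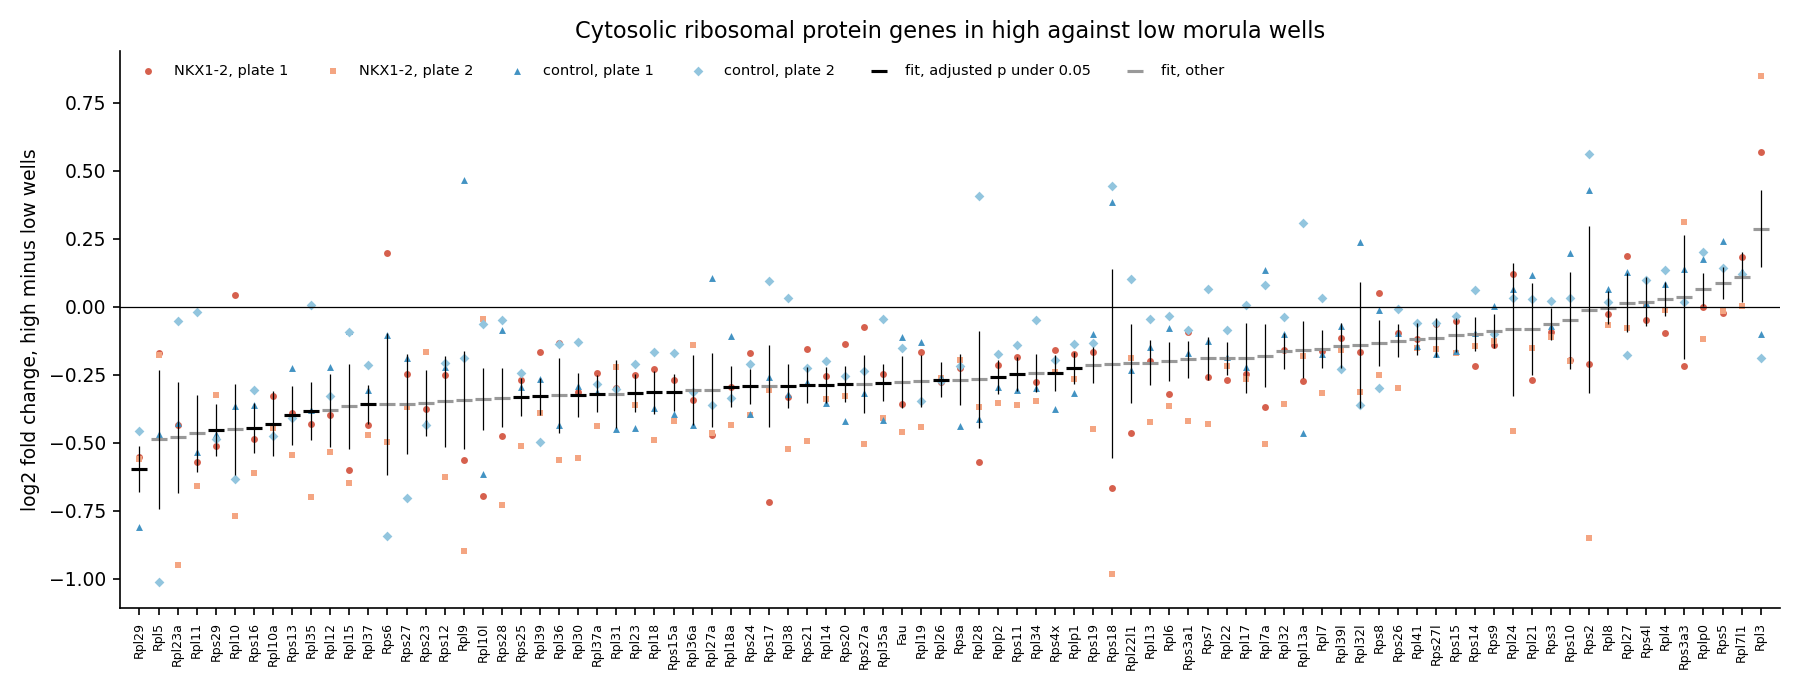
The 86 tested ribosomal protein genes in order of their log2 fold change of high minus low morula wells (black or grey bars, with SE); coloured points are the 4 pairs of sums, NKX1-2 in red tones and control in blue tones. Most genes lie below 0 in all pairs, while Rps18 and Rps2 lie below 0 in NKX1-2 wells and above 0 in control wells.

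Of 68 tested nuclear genes of oxidative phosphorylation 4 fell and 0 rose, beside 1.33% lower and 0.455% higher over all genes tested. The median of these 68 was -0.12, beside -0.01 for all genes tested, and 53 lay below 0. The 4 were Cox7b, of cytochrome oxidase, and Ndufs5, Ndufs6 and Ndufb4, of complex I. Cox7b had 71.9 and 80.1 CPM in NKX1-2 high sums and 43.9 and 56.3 CPM in control high sums, against 77.1 and 145 CPM in NKX1-2 low sums and 80.6 and 168 CPM in control low sums. The low sums of plate 2 lay above those of plate 1, and the log2 fold change was -0.85 (SE 0.18, edgeR adjusted p = 0.00478). Ndufs5 averaged 97.8 ± 15.6 CPM in high sums and 147 ± 24.6 CPM in low sums (-0.60, SE 0.14, edgeR adjusted p = 0.0101), and Ndufb4, at -0.76 (SE 0.21, edgeR adjusted p = 0.0464), kept its call in 2 of 16 alternatives. None of the 7 tested mitochondrial mRNAs passed, with a median of -0.07, while both mitochondrial rRNAs, given after their values were seen, fell, mt-Rnr1 by 0.24 and mt-Rnr2 by 0.20 on the log2 scale, and the tRNA mt-Tv by 0.78.

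Malat1, a long noncoding RNA retained in the nucleus and given here after its value was seen, had 392 and 540 CPM in NKX1-2 high sums and 612 and 704 CPM in control high sums, against 540 and 583 CPM in NKX1-2 low sums and 975 and 1069 CPM in control low sums. Each high sum was below its own low sum, and control wells were above NKX1-2 wells throughout (log2 fold change -0.47, SE 0.08, edgeR adjusted p = 0.000991). Pmaip1, which encodes the proapoptotic protein Noxa, was the 1 of 18 tested p53 targets that passed, beside 1.79% of all genes tested. It had 6.63 and 15.8 CPM in NKX1-2 high sums and 8.44 and 7.41 CPM in control high sums, against 56.4 and 35.1 CPM in NKX1-2 low sums and 17.2 and 7.71 CPM in control low sums. The groups overlapped, and the gap was wide in NKX1-2 wells and narrow in the control wells of plate 2 (log2 fold change -1.59, SE 0.36, edgeR adjusted p = 0.00958). The difference between morpholinos did not pass for Pmaip1 (edgeR adjusted p = 0.792). Cdkn1a, another p53 target and an inhibitor of cyclin-dependent kinases, averaged 208 ± 69.6 CPM in high sums and 204 ± 69.9 CPM in low sums (edgeR adjusted p = 0.975).

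Rbmxl2, an RNA-binding protein of germ cells, had the widest fall among the named genes. It had 17.7 and 12.1 CPM in NKX1-2 high sums and 11.8 and 8.90 CPM in control high sums, against 59.3 and 60.04 CPM in NKX1-2 low sums and 18.5 and 23.1 CPM in control low sums. The sums did not overlap (log2 fold change -1.66, SE 0.29, edgeR adjusted p = 0.000644). The X-linked homeobox gene Rhox5 fell by 1.22 (SE 0.22, edgeR adjusted p = 0.000991) and was lower in 4 of 4 pairs, although its pairs differed widely. Of the remaining named genes, Fuca2, Erlin2, Crygs, Cbr2 and the immediate early gene Ier2 fell by 1.31, 1.23, 0.95, 0.92 and 0.87 on the log2 scale, each at a mean below 100 CPM. Erlin2 and Crygs kept their call in 3 of 15 and 2 of 15 alternatives.

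Few markers of the lineages that the morula will form passed the test, beside 1.79% of all genes tested. Of 12 tested trophectoderm genes 1 fell, Fabp3, a fatty acid carrier, with 17.7 and 32.8 CPM in NKX1-2 high sums and 21.9 and 17.8 CPM in control high sums, against 68.2 and 42.5 CPM in NKX1-2 low sums and 48.9 and 38.5 CPM in control low sums. Its sums did not overlap (log2 fold change -1.14, SE 0.25, edgeR adjusted p = 0.00583), and 50.1% of its 31-base stretches occur in other transcripts. Krt8, Krt18 and Gata3 did not pass (adjusted p of 0.822, 0.894 and 0.515), and Cdx2 was too low to test. Tead4, Hand1 and Tfap2c lay above 0, with log2 fold changes of 0.28, 0.26 and 0.21. They did not pass either (edgeR adjusted p of 0.122, 0.776 and 0.397). Cldn4 also lay above 0, and the other tested trophectoderm genes lay below. Of 18 tested inner cell mass genes Klf2 rose and Tfcp2l1, a factor of naive pluripotency, fell (log2 fold change -0.70, SE 0.18, edgeR adjusted p = 0.0220); Nanog had -0.15 (SE 0.18, edgeR adjusted p = 0.801). Khdc3, a subunit of the maternal subcortical complex, was the 1 of 7 tested oocyte genes that passed, at 478 ± 95.5 CPM in high sums and 637 ± 70.3 CPM in low sums (-0.43, SE 0.09, edgeR adjusted p = 0.00483).

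Of 4 tested early G1 and immediate early genes, Klf2 rose and Ier2 fell, as given above. Of 51 tested genes of S phase and replication none passed and the median was 0.06; Pcna, the replication clamp, had 0.12 and Mcm5, of the replicative helicase, 0.15, with adjusted p of 0.751 and 0.734. Of 14 G1 and E2F genes none passed, Ccne1 (cyclin E1) having 0.20 and Ccnd1 (cyclin D1) 0.21. Of 13 tested histone genes none passed and 10 lay below 0, with a median of -0.21, beside -0.01 for all genes tested. None of 34 tested proteasome genes, 25 actomyosin genes or 18 DNA damage checkpoint genes passed either.

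Signs of other cells and of sex were compared between the groups. The summed level of 21 cumulus and granulosa markers was 102.23 to 118 CPM in high sums and 79.5 to 101.93 CPM in low sums, so that every high sum was above every low sum; 11 of the 21, Fshr and Cyp19a1 among them, had no count in any morula well, and Amhr2 gave 791 of the 861 counts. Amhr2 averaged 98.8 ± 6.44 CPM in high sums and 78.7 ± 5.74 CPM in low sums, was higher in 4 of 4 pairs and did not pass (log2 fold change 0.33, SE 0.15, edgeR adjusted p = 0.318). The part of these markers in the results was not tested. That of 17 fibroblast, endothelial and blood markers was 36.5 to 53.3 CPM in high sums and 50.4 to 64.2 CPM in low sums, with 6 of 17 at 0. The oocyte list summed to 623 to 847 CPM in high sums and 801 to 971 CPM in low sums, and its part in the results was not tested. Khdc3, which passed, gave 5205 of the 7575 counts of this list. Of its other tested members, Oog3, Omt2b, Omt2a and Padi6 lay above 0 and Zp3 and Npm2 below. Xist without Y-linked counts was found in 26 of 63 high wells and 24 of 63 low wells, Y-linked counts without Xist in 26 of 63 high wells and 23 of 63 low wells, and both together in 6 of 63 high wells and 12 of 63 low wells. Why a well held both was not tested. Depth did not separate the groups in 1 direction: the median high well held 51682.5 and 50527 counts in NKX1-2 wells and 40829 and 41948.5 in control wells of plates 1 and 2, against 40271.5 and 42363 in NKX1-2 low wells and 51535.5 and 40099.5 in control low wells.

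The next question is whether NKX1-2 and control wells differed in how high wells compared with low wells, which the interaction of score group and morpholino tests. Of 6594 genes 4 passed (0.0607%), all with a lower high-to-low ratio in NKX1-2 wells. Rps18, of the small ribosomal subunit, had 502 CPM in high sums against 798 CPM in low sums of NKX1-2 wells on plate 1, and 329 CPM against 652 CPM on plate 2. In control wells it had 697 CPM in high sums against 532 CPM in low sums on plate 1, and 614 CPM against 450.3 CPM on plate 2. The 2 morpholinos thus moved in opposite directions, with a log2 difference of -1.24 (SE 0.16, edgeR adjusted p = 2.3e-05).

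Rps2, also of the small subunit, showed the same form. It had 1467 CPM in high sums against 1697 CPM in low sums of NKX1-2 wells on plate 1 and 722 CPM against 1302 CPM on plate 2. In control wells it had 1816 CPM against 1348 CPM on plate 1 and 1489 CPM against 1008 CPM on plate 2. The log2 difference was -1.01 (SE 0.16, edgeR adjusted p = 0.00992). Both genes have near-identical copies, sharing 27.9% and 48.8% of their 31-base stretches, and neither passed in the comparison over both morpholinos (edgeR adjusted p of 0.889 and 0.994).

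Lasp1, an actin-binding adaptor protein, had 112 and 154 CPM in NKX1-2 high sums and 224 and 182 CPM in control high sums, against 209 and 187 CPM in NKX1-2 low sums and 127 and 133 CPM in control low sums (log2 difference -1.23, SE 0.25, edgeR adjusted p = 0.0305). The unnamed transcript D630023O14Rik had 3.32 and 4.85 CPM in NKX1-2 high sums and 21.9 and 11.9 CPM in control high sums, against 44.5 and 48.3 CPM in NKX1-2 low sums and 15.8 and 10.8 CPM in control low sums (-3.79, SE 0.70, edgeR adjusted p = 0.00992). It is scarce, and 1 well gave 31 of its 82 counts in low wells. Of the ribosomal protein list as a whole, the median log2 difference between morpholinos was -0.11, with 2 of 86 genes passing, beside -0.01 for all genes.

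The same score and split were applied to the 2 blastocyst plates, whose wells did not choose the morula wells. There, 57 high wells were compared with 57 low wells. Of 4886 genes tested 88 passed (1.80%), 40 higher (0.819%) and 48 lower (0.982%). Of the genes tested at both stages, 2660 of 4475 (59.4%) had the same sign in blastocyst and morula. Among the 92 of these that passed in the morula, 80 had the same sign (87.0%), including 21 of 21 that rose and 59 of 71 that fell. Without the ribosomal protein list, 33 of the 45 that fell had the same sign (73.3%). In all, 13 genes passed at both stages, 12 of them in the same direction.

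Ribosomal protein genes again lay mostly below 0. In the blastocyst the list's median was -0.17, with 84 of 86 below 0, 8 of them passing and 0 rising; in the morula it was -0.27, with 78 of 86 below 0. Rpl29 had a log2 fold change of -0.40 (SE 0.10, edgeR adjusted p = 0.0371) in the blastocyst and -0.60 (SE 0.08) in the morula. Rpl23, Rpl26 and Rpl38 also passed at both stages. Mad2l1bp had 0.89 (SE 0.18, edgeR adjusted p = 0.0136) in the blastocyst and 0.58 (SE 0.13) in the morula. Cox7b had -0.86 (SE 0.17, edgeR adjusted p = 0.0109) in the blastocyst and -0.85 (SE 0.18) in the morula, and Khdc3 -0.40 (SE 0.09, edgeR adjusted p = 0.0262) in the blastocyst and -0.43 (SE 0.09) in the morula. Other mitotic genes had a median of 0.07 in the blastocyst, with 3 of 145 passing, and 0.03 in the morula, with 2 of 155 passing. Over all genes tested, 1.80% passed in the blastocyst and 1.79% in the morula. The mitotic genes tested were not all the same at both stages.

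**Figure D5:**
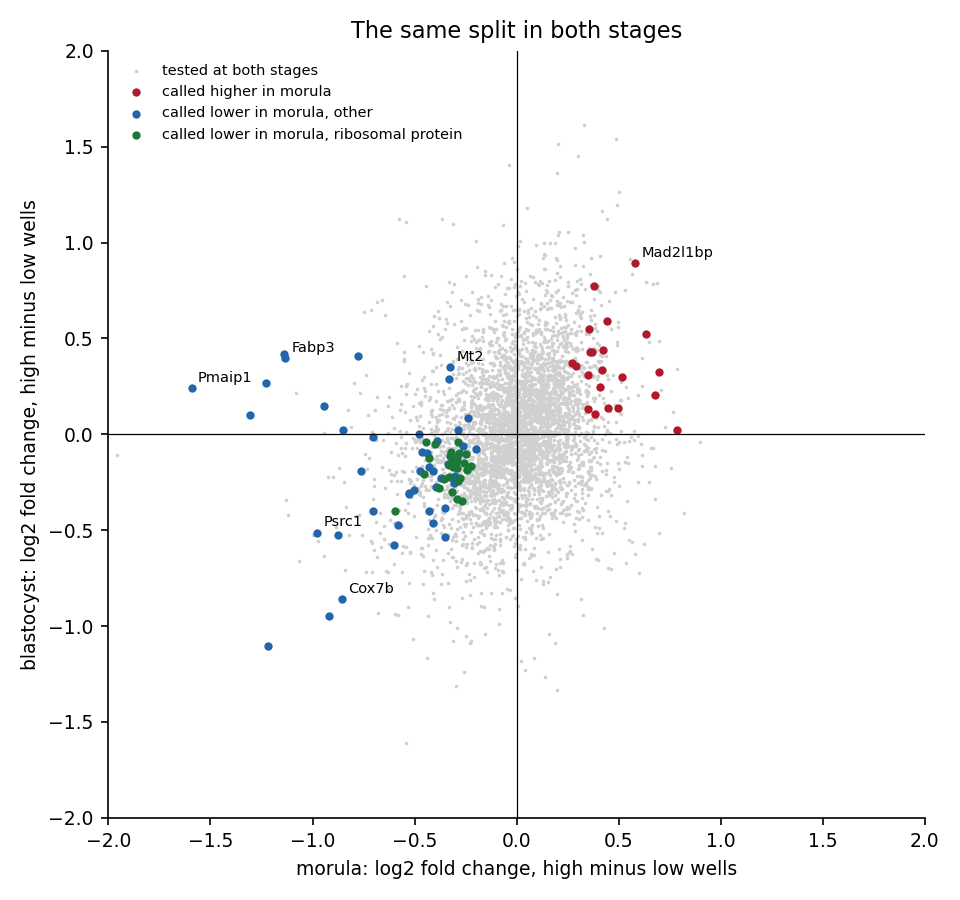
Each point is a gene tested at both stages, with the log2 fold change of high minus low wells in the morula on the horizontal axis and in the blastocyst on the vertical axis; coloured points passed in the morula. All 21 red points lie above the horizontal line, and all 26 green ribosomal points lie at the lower left.

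The stage difference itself, tested as an interaction, passed for 12 of 6788 genes (0.177%), 11 with a higher high-to-low ratio in the blastocyst (0.162%) and 1 with a lower one (0.0147%). Of the 12, Obox8 and Pim1 were too low to test in the blastocyst alone and Lrp2 in the morula alone. Mt2, a metallothionein that binds zinc, had a log2 fold change of 0.35 (SE 0.08) in the blastocyst and -0.32 (SE 0.06) in the morula. Its difference of 0.68 (SE 0.10, edgeR adjusted p = 0.000407) is the same gene moving in opposite directions, and 73.5% of its exons overlap the antisense gene Gm45774, from which its reads cannot be told apart without strand. In the morula Mt2 had 5013 and 4173 CPM in NKX1-2 high sums and 3877 and 3557 CPM in control high sums, against 5463 and 5326 CPM in NKX1-2 low sums and 4757 and 5136 CPM in control low sums. Fabp3 had 0.40 (SE 0.15) in the blastocyst and -1.14 (SE 0.25) in the morula (difference 1.54, SE 0.31, edgeR adjusted p = 0.0279).

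Trophectoderm genes lay above 0 in the blastocyst and mostly below 0 in the morula, which is a count of signs and no test between stages. In the blastocyst 13 of 13 tested members were above 0, with a median of 0.40 beside -0.0006 for all genes tested. Of the 13, 4 passed, while 0.819% of all genes tested passed and rose. Among the 4 were Gata3, a transcription factor of trophectoderm (1.12, SE 0.24, edgeR adjusted p = 0.0149), and the keratin Krt18 (0.85, SE 0.19, edgeR adjusted p = 0.0254). In the morula 4 of 12 were above 0 (Tead4, Hand1, Tfap2c and Cldn4), with a median of -0.17 beside -0.01 for all genes tested. The stage difference passed for Fabp3 and for Lrp2, an endocytic receptor, but Lrp2 was too low to test in the morula, with 2 counts in high wells and 20 in low wells, so that its difference rests on few counts there. Krt18 and Gata3 did not pass it (edgeR adjusted p of 0.389 and 0.177). The ribosomal protein list had 0 of 86 genes that differed between stages, with a median difference of 0.06 beside 0.03 for all genes.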

How the data were processed

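Mouse morula and blastocyst embryos injected with NKX1-2 or control morpholino were measured in 384 wells of 4 plates. The authors deposited raw counts per gene and well barcode for 55453 genes, together with a table that assigns each barcode to a morpholino. TopHat2, GRCm38 and mm10 are named, without a role, per the submitters' processing notes. For the counter, its use of strand and of molecular identifiers, no label or header gives a setting. The labels' protocols name a polyA-capture TruSeq library, while their descriptions name 10x Genomics.

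Counts were summed per plate, morpholino and score group, and sums were compared with edgeR 4.0.16 (R 4.3.3, robust quasi-likelihood test, TMM scaling, filterByExpr filter), with plate and morpholino as a block. Adjusted p is Benjamini-Hochberg over all genes tested, with a threshold of 0.05. Score genes counted in library totals and were not tested. High and low sums of a block come from the same plate and morpholino, and their deviations from the group means correlated at 0.26 to 0.30 in the morula and 0.20 to 0.32 in the blastocyst. Interaction terms tested differences between morpholinos and between stages. Genes with no count in the morula stretch were left out of those fits.

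Named genes were the 12 with the widest rise and the 12 with the widest fall among genes with a name that passed, moved the same way in all 4 blocks and reached 20 CPM in the mean of a group, up to 6 passing members of each list by smallest p, and a set of common markers; other names were chosen after their values were seen and are marked so or stand in a count. The wells, score genes and lists were chosen with earlier results of these data known. Alternatives used DESeq2 1.42.0, limma 3.58.1 (voom), other scalings, filters, scores and splits, wells thinned to 20000 counts, and each plate or morpholino alone. The test was tried on simulated counts with known changes.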

Additional observations from a re-analysis of the deposited data

Results flagged for a closer look

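In groups of 4 sums, 1 sum stood apart from the others for 9 gene and group combinations. Chance gives such a gap in about 1 in 20 groups. Over the high and low groups of up to 69 named genes, several such gaps arise by chance. The 9 are therefore listed as a description. The measure is the gap to the nearest sum divided by the group's range. Among high sums it was 0.847 for Phf20, where NKX1-2 on plate 1 was low at 24.3 CPM, 0.846 for Erlin2, where control on plate 2 was low at 7.41 CPM, and 0.839 for Birc5, where control on plate 2 was high at 335 CPM. Among low sums it was 0.854 for Inka1 and 0.843 for Cdk1, both with NKX1-2 on plate 2 high, at 29.3 CPM for Inka1 and 526 CPM for Cdk1. It was 0.98 for Phf20 (control on plate 2 high at 21.6 CPM) and 0.889 for Zscan5b (control on plate 1 low at 77.9 CPM). It was 0.841 for Krt8, with 104 CPM in NKX1-2 on plate 1, and 0.922 for Xist, with 120.3 CPM in control on plate 2.

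Between morpholinos, the log2 ratio of high to low wells differed for Rps18 by -1.24, for Rps2 by -1.01, for Lasp1 by -1.23 and for D630023O14Rik by -3.79, NKX1-2 minus control (interaction term, edgeR adjusted p of 2.3e-05, 0.00992, 0.0305 and 0.00992). Between stages, blastocyst minus morula, it differed by 0.68 for Mt2, 0.81 for Gm5612, 3.51 for Obox8, 1.48 for Bex6, 3.83 for Lrp2, 1.54 for Fabp3, 1.57 for 4933408N05Rik, 1.42 for Rab11fip1, 1.68 for AC132444.1, -1.32 for Pnpla6, 0.80 for Chka and 1.72 for Pim1, with edgeR adjusted p between 0.000407 and 0.0459. Obox8 and Pim1 were too low to test in the blastocyst alone and Lrp2 in the morula alone, so that their differences rest on few counts in that stage and are no measure of size.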

How the results depend on the processing

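Of 1881 values of single genes under alternative settings, 1463 kept their direction and side of the threshold, 395 lost the call, 22 gained one and 1 turned round, Rps2 in control wells alone (0.49). The cause of these changes was not tested. The 118 genes of the morula comparison became 31 with DESeq2, 26 with thinned wells, 60 with the share of counts as score, 21 with wells split at the median, 45 in control wells alone and 44 to 79 without 1 plate. The 26 ribosomal protein genes became 14 with DESeq2, 14 without the filter on low counts, 9 with thinned wells, 4 with the share as score, 2 with the median split, 1 in control wells alone, 16 in NKX1-2 wells alone and 2 to 7 without 1 plate. The 2 mitotic genes became 1 with DESeq2, 1 with thinned wells, 6 with the score adjusted for depth, 0 with the median split, 1 in NKX1-2 wells alone and 0 to 3 without 1 plate. The 4 morpholino differences became 1 with DESeq2, 8 without the filter, 1 with the depth-adjusted score and 0 with the median split; leaving out a plate leaves no residual degrees of freedom there and was not run. The 88 blastocyst genes became 15 with DESeq2, 136 with every well, 42 with wells of at least 4000 genes, 5 with thinned wells, 173 with the share as score, 25 with the median split and 44 to 88 without 1 plate. The 12 stage differences became 2 with DESeq2, 5 with voom, 29 without the filter, 0 with wells of at least 4000 genes, 3 with thinned wells, 51 with the share as score, 1 with the median split and 1 to 17 without 1 plate. Without the block that pairs high and low sums, each of these counts was 0 in edgeR, with 466, 216, 396 and 271 genes at an unadjusted p under 0.05 in the morula, morpholino, blastocyst and stage comparisons, while DESeq2 with the block made the calls given above.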
